A study of Bos taurus with 6 samples.

Results

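The genes described here build the oxygen sensing system of the cell, namely the subunits of the hypoxia-inducible factors (HIF), the hydroxylases that mark them and the protein that leads the marked subunits to degradation. They are HIF1A, EPAS1, HIF3A, ARNT, EGLN1, EGLN2, EGLN3, VHL and HIF1AN, 9 genes chosen by symbol, and all 9 were found in the deposited table, in 10 of its 26773 transcript clusters. Each transcript cluster is a set of probes read as 1 gene, and EGLN1 has a pair of them. The RNA came from primary bovine granulosa cells (GC), the estradiol-producing cells that line the ovarian follicle, plated at normal density (3 cultures) or at high density (3 cultures) and measured on Affymetrix Bovine Gene 1.0 ST arrays. All 6 cultures were kept serum-free for 9 days with FSH, IGF-1 and androstenedione, and the labels name the initial plating density as the difference between the groups. The cells were pooled from many follicles of several cows from an abattoir whose cycle stage was not known, which limits the cultures as a model of 1 follicle stage, and p-values measure the spread between these cultures.

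In cells with enough oxygen, the EGLN prolyl hydroxylases use molecular oxygen, iron and 2-oxoglutarate to hydroxylate prolines of the HIF alpha subunits. The VHL protein then binds the hydroxylated subunit and brings it to an ubiquitin ligase, so that the alpha subunit is degraded. When oxygen is low, the alpha subunits persist, pair with ARNT and switch on genes of glucose uptake, vessel growth and matrix formation, with EGLN1 and EGLN3 themselves among the known targets. The factor is therefore controlled largely at the protein level, which an RNA array does not measure. In the ovary, HIF is known for its part in the induction of VEGFA around ovulation and during the growth of the corpus luteum.

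Signals are given on the log2 scale, as the authors' RMA procedure made them, and signals of different transcript clusters are not compared in level. Where signals of a pair are subtracted within an array, only the change of that difference between the densities is read, and not relative abundance. A log2 difference is the mean at high density minus that at normal density, with its standard error (SE) from limma, whose p-values were adjusted by the Benjamini-Hochberg (BH) method over the whole table. The term called is used for a transcript cluster whose fold change exceeds 1.5 in size (0.585 on the log2 scale) and whose p and adjusted p lie below 0.05. Of the 10 transcript clusters of the oxygen sensing genes 2 were called, both up-regulated, against 7.49% of all transcript clusters in either direction and 3.97% in the upward direction. None was called lower by limma, against 3.51% of all, or by the methods' t-test. At an unadjusted p below 0.05 from limma, 3 of them (HIF1A, EGLN2 and HIF1AN) were lower. The share of all transcript clusters lower at that unadjusted threshold was not worked out and is at least 10.4%, the share at an adjusted p below 0.05. The called ones were EGLN3 and 1 of the EGLN1 transcript clusters. An adjusted p below 0.05 at any fold change was found for 4 of the 10 (19.1% of all), 2 of them higher (8.64% of all) and 2 lower (10.4% of all), and in 7 of the 10 the densities did not overlap (37.3% of all). The background level, the 95th percentile of the reporter control rows, was 4.62. Both HIF3A means and the normal density mean of EGLN3 lay below it, and 8 of the 10 transcript clusters lay above it at both densities.

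**Figure D1:**
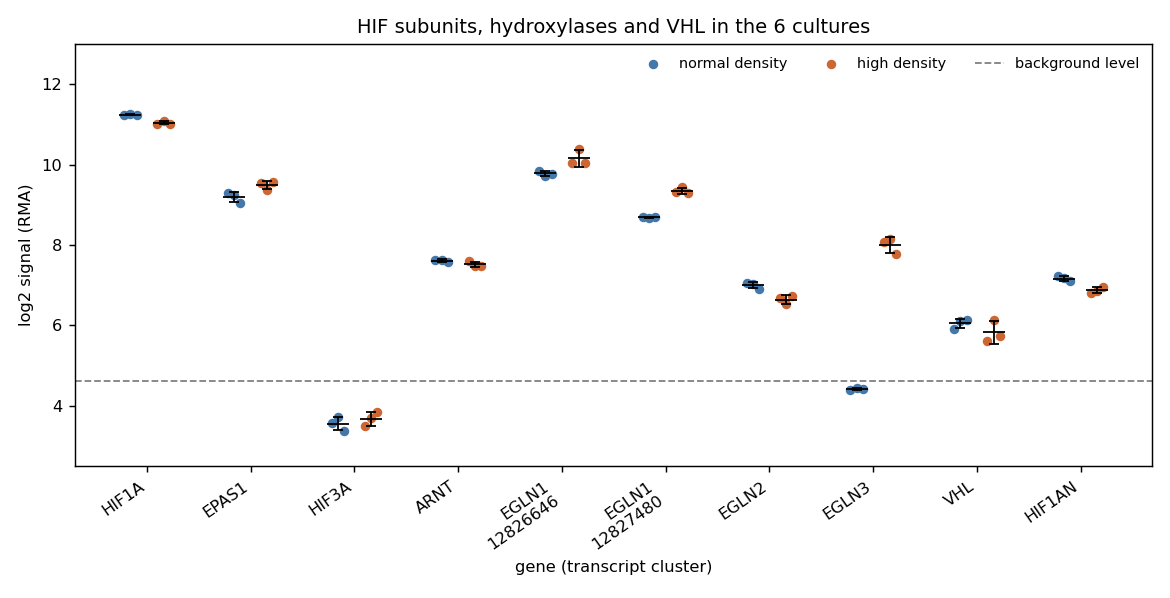
Log2 signals (y axis) of the 10 transcript clusters of the oxygen sensing genes (x axis) in the 3 normal density (blue) and 3 high density (orange) cultures, with means and SD as black bars and the background level of 4.62 as a dashed line. EGLN3 lay below the background level at normal density and between 7.77 and 8.14 at high density, whereas the shifts of the other genes were under 1 log2 unit.

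HIF1A encodes the broadly expressed oxygen-labile alpha subunit. Its signal was 11.24, 11.25 and 11.24 in the normal density cultures and 11.01, 11.08 and 11.02 in the high density cultures. All high density values were thus below all normal density values, and the spread within a density was small. For HIF1A the difference of −0.21 ± 0.06 (SE, BH-adjusted p = 0.0611 by limma) was not called, and its 95% confidence interval from −0.36 to −0.06 holds no increase. Its adjusted p lay between 0.00387 (limma with a trend and robust variances) and 0.176 (without normal density replicate 2) over the alternatives. In the methods' t-test it was 0.0146. By limma it was also below 0.05 with array weights (0.0218), equal array medians (0.0458) or the filter on low signals (0.0216). The same held with signals below background set to background (0.00998) and without high density replicate 2 (0.0301). The fold change stayed under the threshold in all 16 alternatives. The array gave no rise of HIF1A mRNA at high density.

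EPAS1, also known as HIF-2 alpha, encodes the alpha subunit known above all from endothelium. It gave signals of 9.30, 9.24 and 9.04 at normal density and 9.54, 9.37 and 9.57 at high density. The densities did not overlap, and the direction was opposite to that of HIF1A. With a log2 difference of 0.30 ± 0.10 (SE, BH-adjusted p = 0.0689 by limma, 95% confidence interval 0.08 to 0.52) EPAS1 was not called. Over the alternatives its adjusted p lay between 0.0235 (limma with array weights) and 0.209 (limma without normal density replicate 3). By limma it was also below 0.05 with a trend and robust variances (0.0312), the filter on low signals (0.031) or without high density replicate 2 (0.0325). In the methods' t-test it was 0.146. Within each array subtracting the HIF1A from the EPAS1 signal gave −2.05 ± 0.13 in normal and −1.54 ± 0.14 in high density cultures (SD, n = 3), a value higher by 0.51 in the latter, without overlap of the densities (two-sided exact permutation test, p = 0.1, which is the lowest possible value with 3 cultures per density, and 0.12 after adjustment over the 6 pairs of members compared). This difference was between 0.44 and 0.59 with each culture left out.

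HIF3A, whose splice forms include inhibitors of the other alpha subunits, was measured at 3.56, 3.72 and 3.38 at normal density and at 3.50, 3.71 and 3.85 at high density. All of these signals were below the background level and the densities overlapped, so that no change could be measured for this gene (limma, BH-adjusted p = 0.520). ARNT is the constitutive partner that the alpha subunits need to bind DNA. Its signals were 7.64, 7.64 and 7.57 at normal density and 7.59, 7.48 and 7.49 at high density, with overlap of the densities. ARNT had a log2 difference of −0.09 ± 0.07 (SE, BH-adjusted p = 0.400 by limma), and its 95% confidence interval of −0.26 to 0.07 lies within the fold change threshold in both directions.

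EGLN3, the hydroxylase known for its strong induction by HIF, showed the largest change of these genes. Its signals at normal density were 4.40, 4.44 and 4.41, all below the background level and close to each other. The high density cultures reached 8.07, 8.14 and 7.77. EGLN3 was thus below the background level in every normal density culture and well above it in every high density culture. This difference of 3.57 ± 0.10 (SE, BH-adjusted p = 9.85e-06 by limma) was called in all 16 alternatives. Since the lower mean, 4.42, was under the background level, the rise to 7.99 is given as 10.4-fold, which is the distance from the background level. This estimate uses the high density mean and leaves out the spread of the cultures, of which the lowest was at 7.77. Leaving out single cultures gave log2 differences from 3.50 to 3.69.

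EGLN1, the hydroxylase known to set HIF levels in cells with normal oxygen, is represented by transcript clusters 12827480 and 12826646. In the first, the signals were 8.70, 8.68 and 8.70 at normal density and 9.31, 9.43 and 9.31 at high density, a log2 difference of 0.65 ± 0.07 (SE, BH-adjusted p = 7.96e-04 by limma). This rise, 1.57-fold, was called here and in all 16 alternatives, although the lower end of its 95% confidence interval, 0.49, lies under the fold change threshold. In transcript cluster 12826646 the signals were 9.84, 9.73 and 9.77 at normal density and 10.03, 10.40 and 10.03 at high density. The densities did not overlap here either. The log2 difference of 0.37 ± 0.11 (SE, BH-adjusted p = 0.0567 by limma) was not called. High density replicate 2 had the highest signal, and without it the log2 difference was 0.25 (limma, BH-adjusted p = 0.0327). The distance between both EGLN1 transcript clusters came to 1.08 ± 0.05 in normal and 0.80 ± 0.14 in high density cultures (SD, n = 3; two-sided exact permutation test, p = 0.1).

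EGLN2, which is known as the EGLN enzyme that hypoxia does not induce, was lower in all high density cultures. Its signals were 7.06, 7.04 and 6.91 at normal density and 6.68, 6.53 and 6.73 at high density, without overlap. The log2 difference of −0.36 ± 0.08 (SE, BH-adjusted p = 0.0241 by limma) passed the FDR threshold but not that of the fold change, and the gene was not called. Over the alternatives its adjusted p lay between 0.00881 and 0.0929, and, the replicate block aside, it exceeded 0.05 in the methods' t-test (0.0625), with signals below background set to background (0.0561) and without normal density replicate 1 (0.0929), normal density replicate 2 (0.0897) or high density replicate 1 (0.0545).

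The EGLN genes were also compared with each other within each array. The difference between the EGLN3 and EGLN1 signals (mean of both EGLN1 transcript clusters) was larger at high density by 3.06 on the log2 scale, and that between EGLN3 and EGLN2 by 3.93. Between EGLN1 and EGLN2 it was larger by 0.87. The values with EGLN3 rest on normal density signals below the background level. In each of these 3 pairs the within-array differences of the densities did not overlap (exact permutation, two-sided p = 0.1, again the lowest value possible, and 0.12 after adjustment over 6 pairs). Leaving out each culture in turn gave 2.98 to 3.13, 3.80 to 4.08 and 0.73 to 0.95.

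HIF1AN encodes the asparagine hydroxylase that blocks the binding of coactivators to the alpha subunits. It had signals of 7.22, 7.17 and 7.10 at normal density and 6.82, 6.85 and 6.95 at high density. As for EGLN2, the high density cultures lay below those of normal density without overlap. The log2 difference was −0.29 ± 0.07 (SE, BH-adjusted p = 0.0324 by limma), which passed the FDR but not the fold change threshold. Its adjusted p ranged from 0.0115 to 0.120 over the alternatives. With a culture left out it was 0.120, 0.105 and 0.0683 without normal density replicates 1, 2 and 3, and 0.0956, 0.0403 and 0.0465 without high density replicates 1, 2 and 3.

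VHL was measured at 5.92, 6.12 and 6.12 at normal density and at 5.61, 6.14 and 5.73 at high density. High density replicate 2 lay above all normal density cultures and the other high density cultures lay below them. VHL was not called (log2 difference −0.23 ± 0.14 SE, BH-adjusted p = 0.325 by limma). Without high density replicate 2 the log2 difference was −0.38 with an adjusted p of 0.0269 from limma, under the fold change threshold. At high density its SD of 0.28 (n = 3) was the largest of the oxygen sensing genes.

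**Figure D2:**
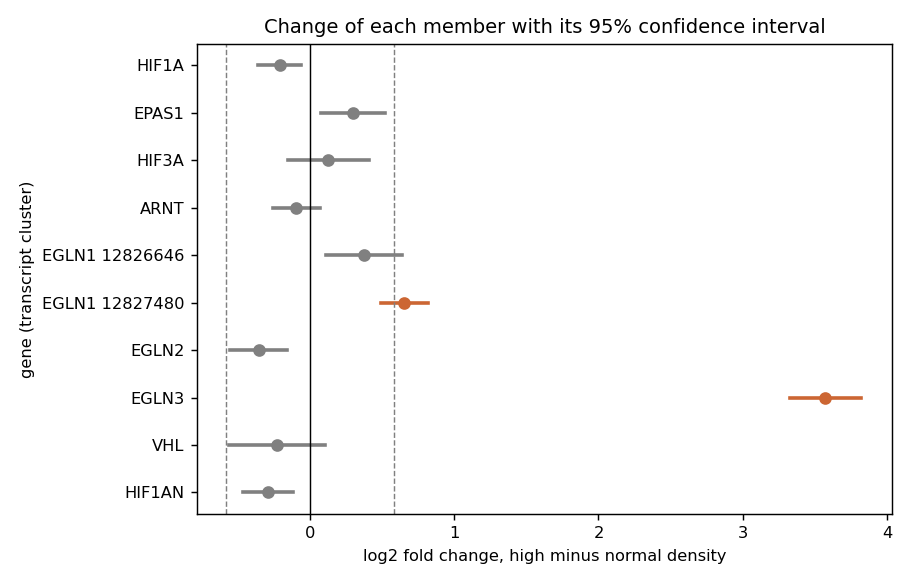
Log2 fold changes (x axis, high minus normal density) of the 10 transcript clusters (y axis) as points with 95% confidence intervals from limma as bars, orange where called, with the fold change threshold of 0.585 in size as dashed lines. EGLN3 stands alone at 3.57, the called EGLN1 transcript cluster lies at 0.65, and HIF1A, EGLN2 and HIF1AN lie left of 0 within the threshold.

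High density cultures differed more among each other than those of normal density. The SD was larger at high density in 9 of the 10 transcript clusters, as in 68.4% of all. High density replicate 2 was farthest from its group over all transcript clusters, with a root mean square deviation of 0.17 against 0.11 to 0.14 in the other cultures, and also over the oxygen sensing genes, with 0.15 against 0.06 to 0.11. No call of an oxygen sensing gene was gained or lost without it.

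Proteins that act on HIF were looked at through a list of 37 genes, of which 35 were found, in 37 transcript clusters. Of these, 2 were called higher and 1 lower (8.11%, against 7.49% of all transcript clusters), with a median log2 difference of 0.01, against 0.02 over all. The called ones were ARNT2, ARNTL and CITED1. ARNT2, a sister of ARNT that can also pair with alpha subunits, had signals of 4.90, 4.93 and 4.70 at normal density and 5.69, 5.29 and 5.69 at high density, a log2 difference of 0.72 ± 0.13 (SE, BH-adjusted p = 0.00786 by limma). ARNT2 was not called in the methods' t-test (BH-adjusted p = 0.0611) or with signals below background set to background (0.0546). ARNTL, a relative in the same family that serves mainly in the circadian clock, rose from 5.75 ± 0.09 to 6.75 ± 0.16 (SD, n = 3), with an SE of the difference of 0.10 (BH-adjusted p = 5.92e-04 by limma). CITED1, from a family that competes for the coactivators of HIF, fell from 6.97 ± 0.07 to 6.29 ± 0.04 (SD, n = 3), a log2 difference of −0.68 ± 0.07 (SE, BH-adjusted p = 7.71e-04 by limma).

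The partners of VHL in the ubiquitin ligase were not called. CUL2, the scaffold, had a log2 difference of −0.40 ± 0.10 (SE, BH-adjusted p = 0.0305 by limma), past the FDR but not the fold change threshold. The values were −0.21 for RBX1, −0.14 for TCEB1 and 0.14 and 0.22 for the TCEB2 transcript clusters, with adjusted p-values from limma between 0.245 and 0.433. For CUL2, RBX1 and TCEB1, as for VHL, high density replicate 2 had the highest signal of its density. It was at 6.64, 7.91 and 9.04 against at most 6.34, 7.35 and 8.85 in the other high density cultures. For the TCEB2 transcript clusters it was not the highest, with 7.31 and 7.52 against 7.60 and 7.82 in high density replicate 3. Of the coactivator genes, CREBBP had a log2 difference of −0.20 ± 0.07 (SE, BH-adjusted p = 0.0819 by limma), while EP300 was not found by symbol. CITED2, a HIF-induced protein that competes with HIF for these coactivators, was at 9.66 ± 0.04 and 9.67 ± 0.04 (SD, n = 3), a difference of 0.01 with a 95% confidence interval from −0.14 to 0.17. SIAH2, a ligase that leads EGLN enzymes to degradation, had a log2 difference of 0.36 ± 0.08 (SE, BH-adjusted p = 0.0150 by limma), and P4HTM, a transmembrane prolyl hydroxylase related to the EGLN enzymes, of −0.29 ± 0.08 (SE, BH-adjusted p = 0.0345 by limma). Both passed the FDR but not the fold change threshold.

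Known HIF target genes other than EGLN1 and EGLN3 were often higher at high density. Of 58 listed genes 57 were found, in 58 transcript clusters, and 33 of these were called higher and 0 lower by limma. The methods' t-test also called 0 lower, and 1 was lower at an unadjusted p below 0.05 from limma. The share of all transcript clusters lower at that unadjusted threshold was not worked out. At an adjusted p below 0.05 and any fold change 0 of the targets were lower, against 10.4% of all transcript clusters. The share called higher was 56.9%, against 3.97% of all transcript clusters. Their median log2 difference was 0.71, against 0.02 over all. A positive log2 difference was measured in 57 of the 58, the exception being HMOX1 with −0.28 (limma, BH-adjusted p = 0.0817). Both means lay above the background level in 47 transcript clusters, of which 28 were called higher, against 5.71% of the 12148 transcript clusters of the whole table with both means above it. The list was written with earlier results for genes such as LOX, LOXL2, NDRG1 and VEGFA known, so that its direction is not independent evidence. Under the alternatives between 31 and 41 were called higher, and 0 lower in each of them.

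**Figure D3:**
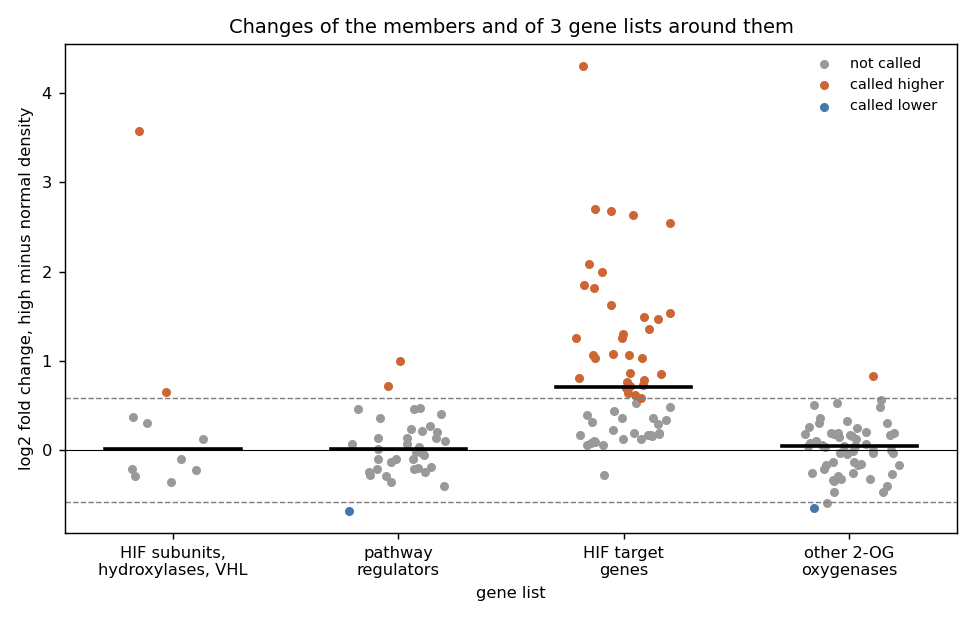
Log2 fold changes (y axis, high minus normal density) of single transcript clusters in 4 gene lists (x axis), coloured by call, with the median of each list as a black bar and the fold change threshold as dashed lines. HIF target genes lie almost wholly above 0 with a median of 0.71, while the medians of the other lists are at 0.02, 0.01 and 0.04.

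LOXL2, a secreted lysyl oxidase that crosslinks collagen, rose most among the targets, from 5.07 ± 0.19 to 9.37 ± 0.13 (SD, n = 3). PPP1R3C, which brings a phosphatase to glycogen, had signals of 4.33, 4.52 and 4.54 at normal density and 7.17, 7.26 and 7.06 at high density, a log2 difference of 2.70 ± 0.09 (SE, BH-adjusted p = 1.07e-05 by limma). The further genes with the largest rises were LOX with 2.68, CXCR4, a chemokine receptor, with 2.64, and STC2, a secreted glycoprotein, with 2.55. Normal density means of PPP1R3C, LOX, CXCR4 and STC2 were below the background level, and the sizes of these rises rest on signals under that level.

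CA9, a carbonic anhydrase at the cell surface and one of the most used markers of HIF activity, was measured at 4.08, 3.62 and 3.73 at normal density and at 5.90, 5.59 and 5.50 at high density. Its normal density signals were below the background level and its high density signals above it, with a log2 difference of 1.85 ± 0.15 (SE, BH-adjusted p = 2.44e-04 by limma). VEGFA, the main vessel growth factor, had signals of 9.89, 9.79 and 9.67 at normal density and 10.88, 10.85 and 10.87 at high density (log2 difference 1.08 ± 0.08 SE, BH-adjusted p = 1.55e-04 by limma). The glucose transporter SLC2A1 changed from 10.03 ± 0.11 to 10.88 ± 0.10 (SD, n = 3), a log2 difference of 0.85. For NDRG1, a stress-response gene, the log2 difference was 2.09 ± 0.09 (SE, BH-adjusted p = 2.08e-05 by limma). Each of these genes was higher in all 3 high density cultures than in any normal density culture.

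The targets were also grouped by known function after their values were seen, so that the counts per group only describe the list. Differences between these groups were not tested. The share called higher was 56.9% over the whole target list and 3.97% over all transcript clusters. All 5 genes of glycogen and lipid storage were called higher, with log2 differences between 0.64 and 2.70. Of the transcript clusters for mitochondria, lactate and acid export 7 of 9 were called, and of those for secreted factors and their receptors 7 of 11. In the group of glucose uptake and glycolysis 5 of 13 were called, namely those of SLC2A3, HK2, SLC2A1, PFKFB3 and 1 of LDHA. The glycolytic enzymes GAPDH, GPI, PGK1, ENO1 and TPI1 had log2 differences of 0.08, 0.09, 0.11, 0.17 and 0.19 and were not called. ALDOA, which cleaves fructose bisphosphate, had 0.32 ± 0.08 (SE, BH-adjusted p = 0.0333 by limma), past the FDR but not the fold change threshold, as had PFKFB4 with 0.34 (limma, BH-adjusted p = 0.0137). Among the collagen-modifying genes LOX and LOXL2 were called, whereas the hydroxylases P4HA1, P4HA2 and PLOD2 had log2 differences of 0.15, 0.36 and 0.17 and were not. Of these hydroxylases P4HA2 passed the FDR but not the fold change threshold (limma, BH-adjusted p = 0.00906). EPO, the classical HIF target of kidney, was below the background level at both densities, with means of 2.86 and 3.03.

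**Figure D4:**
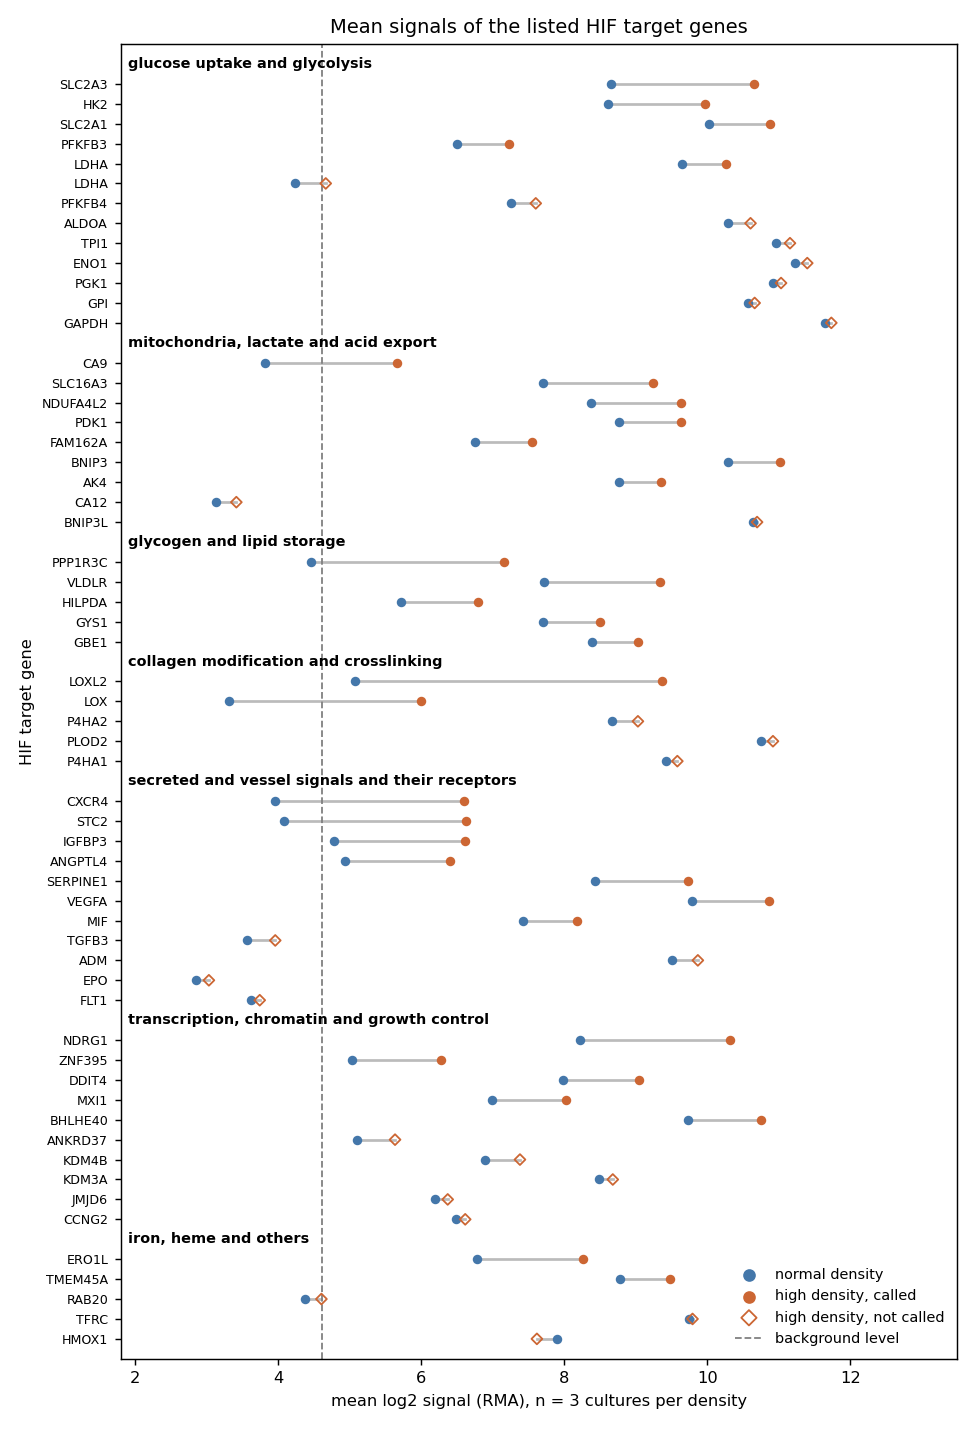
Mean log2 signals (x axis, n = 3 cultures per density) of the listed HIF target genes (y axis), grouped by known function, at normal density (blue) and high density (orange circles where called, open diamonds where not), with the background level as a dashed line. The groups were drawn after the values were seen. Genes of glycogen and lipid storage were all called, while GAPDH, GPI, PGK1, ENO1 and TPI1 were not called and had log2 differences of at most 0.19.

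The EGLN enzymes and HIF1AN belong to a large family of enzymes that need oxygen and 2-oxoglutarate, among them collagen hydroxylases and histone demethylases. Of 58 other family genes 54 were found, in 57 transcript clusters. P4HTM, P4HA1, P4HA2, PLOD2, KDM3A, KDM4B and JMJD6 are also in the lists above. Only 1 was called higher and 1 lower (3.51%, against 7.49% of all transcript clusters), and the median log2 difference was 0.04. P4HA3, a collagen prolyl hydroxylase, rose from 7.96 ± 0.04 to 8.79 ± 0.10 (SD, n = 3), a log2 difference of 0.83 ± 0.08 (SE, BH-adjusted p = 4.29e-04 by limma). HSPBAP1 fell, with signals of 5.60, 5.73 and 5.40 at normal density and 4.68, 5.28 and 4.82 at high density, a log2 difference of −0.65 ± 0.16 (SE, BH-adjusted p = 0.0298 by limma). This call was lost in the methods' t-test, with signals below background set to background, and when 1 of normal density replicates 1 and 2 or high density replicates 1 and 3 was left out (limma, BH-adjusted p between 0.0849 and 0.102). Without normal density replicate 1 or high density replicate 3, 2 were called higher. The log2 differences of this family lay between −0.65 and 0.83, beside 3.57 for EGLN3.

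The profiles most like that of EGLN3 over the 6 cultures, measured as the root mean square difference of the centred log2 signals, were those of NRN1 (0.15), IL33 (0.18), LPL (0.19), UPP1 (0.22) and KRT8 (0.24). Their log2 differences lay between 3.34 and 3.79, but the normal density means of NRN1, IL33 and UPP1, like that of EGLN3, were below the background level, so that these differences and their likeness rest in part on signals under it. The called EGLN1 transcript cluster was closest to GALNT1, NTN4, C21H14orf79, ENKUR and TMEM50B, with differences between 0.02 and 0.03 and log2 differences between 0.59 and 0.70. Because profiles were chosen by this measure, the log2 differences of both sets were bound to lie near that of the member and are no separate result. ENKUR was below the background level at both densities. None of these genes belongs to the lists above.

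The cultures were checked with markers of GC and of other cells. Of the 8 GC markers 7 were above the background level at each density. CYP19A1, FSHR, INHA and FOXL2 were called lower and HSD17B1 higher at high density (62.5% of the list, against 7.49% of all transcript clusters). The high density mean of CYP19A1 (3.71) and the normal density mean of HSD17B1 (4.19) were below the background level. The mean signal of the list was between 6.60 and 6.86 at normal density and between 5.82 and 5.99 at high density. In bulk RNA fewer cells of a type and less RNA per cell cannot be told apart. Since EPAS1 is known from endothelium, 10 endothelial markers were considered. Of these, 8 were below the background level at both densities, among them PECAM1, CDH5, TEK, KDR and TIE1, and the mean signal of the list was 3.21 to 3.28 at normal density and 3.57 to 3.62 at high density. CLDN5 was called, with a log2 difference of 2.81, and VWF had means of 5.39 and 5.70.

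EGLN3 is also known from smooth muscle. Of 7 smooth muscle markers ACTA2 and TAGLN were called higher, with log2 differences of 1.15 and 1.08, and MYH11 and SYNPO2 lower, with −0.67 and −1.18. The share called was 57.1%, against 7.49% of all transcript clusters. Both MYH11 means (4.59 at normal and 3.93 at high density) and the high density mean of SYNPO2 (4.06) were below the background level. The mean signal of this list was 5.51 to 5.55 at normal density and 5.65 to 5.81 at high density, and its part in the EGLN3 result was not tested. All 7 leukocyte and all 6 erythroid markers were below the background level at both densities and none was called. Of 5 theca markers 3 were above the background level at both densities. INSL3, with means of 7.20 and 9.02, was called higher (log2 difference 1.82, the largest of the list). PTCH1, with means of 6.03 and 6.33, passed the FDR but not the fold change threshold (0.31, BH-adjusted p = 0.0284 by limma). NR2F2 had means of 6.47 and 6.40 and was not called. CYP17A1, with means of 2.93 and 2.92, and GLI1 were below the background level at both densities. The mean signal of the theca list was 5.27 to 5.31 in the normal and 5.65 to 5.78 in the high density cultures, without overlap, and its part in the results above was not tested.

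**Figure D5:**
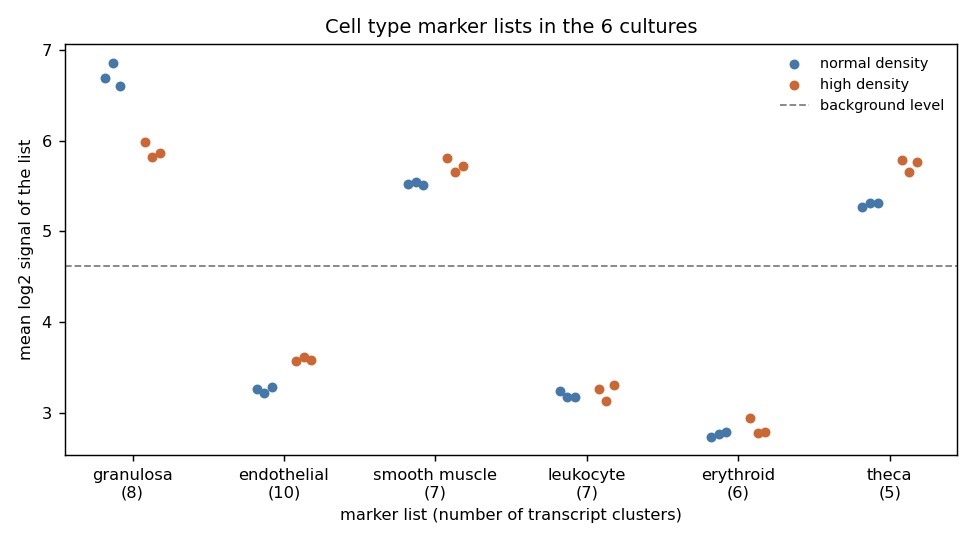
Mean log2 signal (y axis) of each cell type marker list (x axis, with the number of transcript clusters) in the 3 normal density (blue) and 3 high density (orange) cultures, with the background level as a dashed line. Endothelial, leukocyte and erythroid lists lay below the background level in all 6 cultures, and the GC list was between 5.82 and 5.99 at high density against at least 6.60 at normal density.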

How the data were processed

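RNA of 6 GC cultures was measured with 1 array each. The deposited log2 signals are those of the authors, who ran RMA in Expression Console (background reduction, normalization, gene-level summary), and no step was added. The labels give the groups and replicate numbers. Rows were found by gene symbol, and for 6 of 10 transcript clusters the accession matched the same symbol in RefSeq. Those of EPAS1, ARNT and both EGLN1 transcript clusters, the called one included, were not listed there, so that their symbols were not checked in this way. No genome build is given in the sources used here, so that no coordinates are printed.

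The density effect was fitted by limma (version 3.58.1, R 4.3.3) with lmFit and eBayes and no covariates, p-values being adjusted by Benjamini-Hochberg across the 26773 transcript clusters including 82 reporter control rows, and the thresholds of the methods (fold change 1.5, p and FDR 0.05). Pairs of members were compared by exact permutation of the cultures. The scripts were tested on simulated data. The alternatives were other variance models, the methods' t-test, array weights, a replicate block, other scalings, a filter on low signals, other thresholds and leaving out each culture. Setting signals below background to background was added after the data were seen. The number of arrays limits the precision.

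The members and gene lists were chosen with earlier results of these data known. Named are all members, the 5 largest called rises and falls of each pathway list, fixed partners (ARNT2, TCEB1, TCEB2, CUL2, RBX1, CREBBP, EP300, CITED2, SIAH2, P4HTM) and targets (VEGFA, CA9, SLC2A1, NDRG1), and the 5 profiles closest to each called member. Other genes, and the split of targets by function, were chosen after their values were seen.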

Additional observations from a re-analysis of the deposited data

How the results depend on the processing

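The 2 calls among the oxygen sensing genes held in all 16 alternatives, and every measured log2 fold change of a member kept its direction. HIF3A gave no value in 2 of them, since its signals were all below background. With the FDR threshold alone, 2 members (EGLN2 and HIF1AN), 4 pathway regulators, 7 oxygenases and 2792 of all transcript clusters were lower, instead of 0, 1, 1 and 941, and 6 regulators, 8 oxygenases and 2314 of all were higher, instead of 2, 1 and 1064. The methods' t-test gave 1 higher regulator and 0 lower oxygenases, and the FDR threshold of 0.01 gave 0 lower oxygenases. Array weights, and the filter on low signals, gave 2 lower oxygenases, and a second quantile normalization 2 higher ones. With signals below background set to it there were 1 higher regulator, 0 lower oxygenases and 564 lower transcript clusters in all. With each culture left out, higher oxygenases numbered 1 to 2, and lower ones 0 to 2.

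The sources used here do not say whether same-numbered cultures share a cell pool. Deviations from the group means correlated by 0.05, −0.05 and −0.04 between same-numbered cultures, which shows no pairing and does not exclude it. With the replicate number as a block, 2 members, 33 HIF target genes and 1 oxygenase were called higher and 1 regulator and 1 oxygenase lower, and the adjusted p of EGLN2 and HIF1AN was 0.0610 and 0.0881. Low signals restrict the fold changes that can be measured for EGLN3, HIF3A, NRN1, IL33, UPP1 and ENKUR. The same holds for the markers CYP19A1, HSD17B1, MYH11 and SYNPO2 and for the target genes with normal density signals below the background level.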
